A study of Mus musculus with 9 samples.

Results

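Stress keratins 6, 16 and 17 are the keratins that stratified epithelia make when they are wounded, inflamed or dividing fast. They were followed here in mouse cornea through 4 genes, Krt6a, Krt6b, Krt16 and Krt17, out of 22180 genes measured on the arrays. Each gene was represented by the array row (probe set) that the platform annotation assigned to that gene symbol alone, and each had exactly 1 such row. Gene expression was measured on single-colour arrays in 9 pools of whole corneas, with 3 pools in each of 3 groups. The rescued group carried the corn1 mutation of Dstn, the gene for the actin-depolymerising protein destrin, and had also lost Srf, which encodes serum response factor, from the corneal epithelium by genetic ablation. The mutant group carried the Dstn corn1 mutation without that ablation, and wild-type (WT) corneas made up the third group. Each pool held 10 corneas from 5 mice, so the values are averages over animals, and the labels do not say which transgene or promoter drove the ablation. All groups, WT included, had been given doxycycline by intraperitoneal injection between postnatal days 28 and 58, were collected at postnatal day 58 and shared a mixed background of the strains FVB, Swiss Black, C57BL6/J, A.BY and 129.

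Keratins are the intermediate filament proteins of epithelial cells, and a filament needs a type I and a type II keratin. Krt16 and Krt17 encode type I keratins, and Krt6a and Krt6b encode a pair of closely related type II keratins that assemble with them. In skin these genes are active in the hair follicle and other appendages, and in the epidermis between follicles they are switched on around wounds and in hyperproliferative disease. In the cornea the keratins of the resting epithelium include Krt12, which is specific to that tissue, and Krt5 with Krt14 in basal cells.

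Values are given as log2 intensities on the authors' normalised scale, so a difference of 1 is a factor of 2 in intensity. The 9 arrays had medians between 6.75 and 6.78 and a highest value between 14.25 and 14.32. Dstn averaged 5.62 ± 0.01 in rescued, 5.63 ± 0.15 in mutant and 12.57 ± 0.02 in WT pools (SD, n = 3 each). Srf averaged 9.01 ± 0.51 in rescued, 10.68 ± 0.12 in mutant and 9.13 ± 0.13 in WT pools. The rescued pools thus held less Srf RNA than the mutant pools (log2 difference −1.67, limma adjusted p = 0.000841). They did not differ from WT past the threshold (−0.12, limma adjusted p = 0.787). The corneal epithelial markers Krt12 and Aldh3a1 had group means between 13.39 and 13.95, so the markers of the tissue named in the labels were present. The files give no call of detection and no measure of saturation. Differences were tested with limma over all genes, with Benjamini-Hochberg adjusted p-values and a threshold of 0.05.

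All 4 stress keratins were higher in the mutant than in WT corneas, by 51.7-fold for Krt17, 14.7-fold for Krt16, 1.34-fold for Krt6a and 1.25-fold for Krt6b. Across the arrays, 15.1% of genes were called higher in the mutant and 16.5% were called lower. All 4 were also higher in rescued than in WT corneas, where 6.28% of genes were called higher and 7.43% were called lower. None of the 4 passed the limma test between rescued and mutant corneas, although 1, Krt17, had an unadjusted p under 0.05. There 6.46% of genes were called higher and 6.88% were called lower. For each of the 4 genes, every rescued pool and every mutant pool lay above every WT pool, a separation shown by 13.4% of genes for rescued over WT and by 21% for mutant over WT. The persistence of Krt16 and Krt17 after Srf ablation was known when these genes were chosen, so the tests describe it and do not support it independently.

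**Figure D1:**
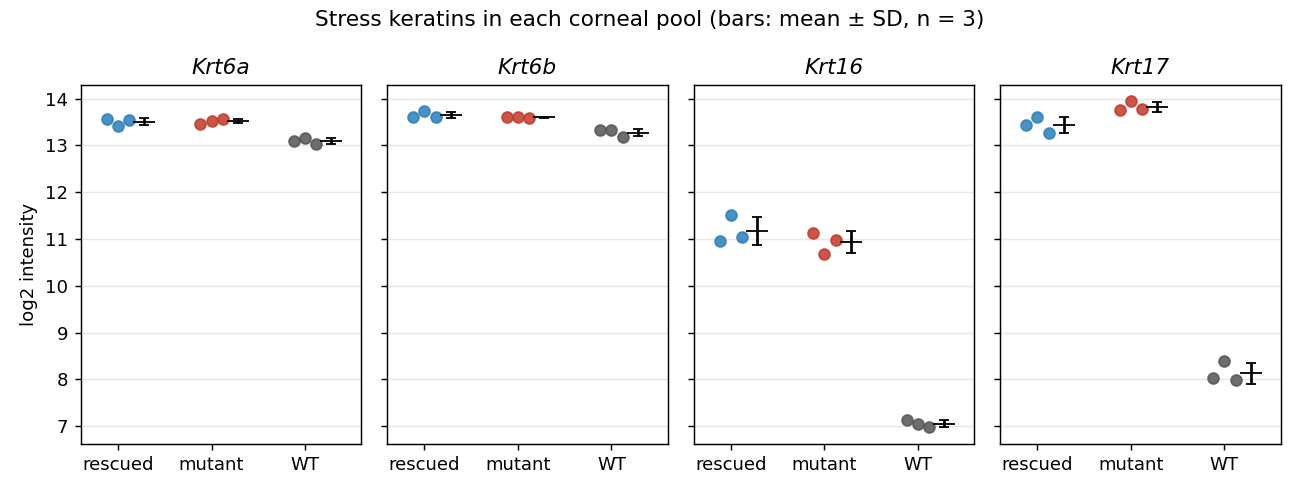
Log2 intensity (vertical axis) of Krt6a, Krt6b, Krt16 and Krt17 in the rescued, mutant and WT groups, 1 point per pool of corneas, with the mean and SD of the 3 pools as a bar beside them. Rescued and mutant pools of Krt16 lie between 10.68 and 11.50, and WT pools lie at 7.13 or below.

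Krt17 encodes the type I keratin that marks wounded and activated keratinocytes. Its log2 intensity was 13.44, 13.60 and 13.26 in rescued pools 1 to 3, 13.75, 13.94 and 13.77 in mutant pools, and 8.03, 8.39 and 7.98 in WT pools. The rescued pools lay between the other groups, just under the mutant pools and far above the WT pools, with no overlap between any pair of groups. In the mutant the gene stood above 99.98% of all array rows on average, in the rescued pools above 99.85% and in WT above 70.6%. The log2 difference between mutant and WT was 5.69 (SE 0.12, limma adjusted p = 9.47e-09), which was the rank 4 increase among the 22180 genes. The difference between rescued and WT was 5.30 (SE 0.12, adjusted p = 2.46e-08), or 39.5-fold, and ranked 3. Fewer cells of a type and less RNA per cell cannot be told apart in these whole-tissue pools, for this gene and for the others.

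Between rescued and mutant corneas the log2 difference of Krt17 was −0.39 (SE 0.12, 95% interval −0.66 to −0.11). It did not pass limma's test after adjustment over all genes (adjusted p = 0.0706), although each rescued pool lay below each mutant pool. The call depended on the settings, and the difference stayed uncalled under 7 of 11 alternative settings. Among those that changed the call, the limma adjusted p was 0.0317 with an intensity trend in the variance and 0.0363 without dim genes. It was 0.0348 with Y-linked expression as a covariate. When each array in turn was left out, the limma adjusted p ran from 0.0355 to 0.2185, and only the fit without WT replicate 2 passed. The ratio of rescued to mutant intensity was 0.764, with an interval from 0.631 to 0.926. Krt17 was close to the top of the range of the arrays in both groups, and saturation there was not tested.

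Krt16 encodes the type I keratin that pairs with keratin 6 in activated epidermis. Its log2 intensity was 10.96, 11.50 and 11.05 in rescued pools 1 to 3, 11.13, 10.68 and 10.99 in mutant pools, and 7.13, 7.04 and 6.98 in WT pools. Rescued and mutant pools overlapped, and the WT pools lay far below both. The WT values stood above 54.8% of all array rows on average, so signal above background was not shown in WT and the folds against WT may be too small. The log2 difference between mutant and WT was 3.88 (SE 0.15, adjusted p = 3.66e-07), rank 26 among the increases. Between rescued and WT it was 4.12 (SE 0.15, adjusted p = 9.42e-07), a ratio of 17.4 that ranked 7. Between rescued and mutant it was 0.24 (SE 0.15, adjusted p = 0.37), with an interval for the ratio of rescued to mutant from 0.931 to 1.49.

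Krt6a and Krt6b, the type II genes, were already among the brightest rows in WT corneas. Krt6a had log2 intensities of 13.57, 13.42 and 13.54 in rescued pools, 13.47, 13.52 and 13.56 in mutant pools, and 13.10, 13.16 and 13.02 in WT pools. Krt6b had 13.60, 13.72 and 13.61 in rescued pools, 13.60, 13.61 and 13.58 in mutant pools, and 13.32, 13.32 and 13.18 in WT pools. For both genes the rescued and mutant pools were intermixed and the WT pools stood slightly below them. In WT, Krt6a was above 99.68% and Krt6b above 99.78% of all rows, so few rows were brighter, and the highest value on any array was 14.32.

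The increase of Krt6a in the mutant was 0.42 on the log2 scale (SE 0.07, adjusted p = 0.000985), and that in rescued corneas was also 0.42 (SE 0.07, adjusted p = 0.00358). For Krt6b the increases were 0.32 in the mutant (SE 0.07, adjusted p = 0.00387) and 0.37 in rescued corneas (SE 0.07, adjusted p = 0.00536). Neither gene passed between rescued and mutant corneas, with adjusted p-values of 0.979 for Krt6a and 0.701 for Krt6b. The intervals for the ratio of rescued to mutant were 0.898 to 1.11 for Krt6a and 0.935 to 1.14 for Krt6b. These are the narrowest of the 4 members, and how far the closeness to the top of the range narrowed them was not tested.

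**Figure D2:**
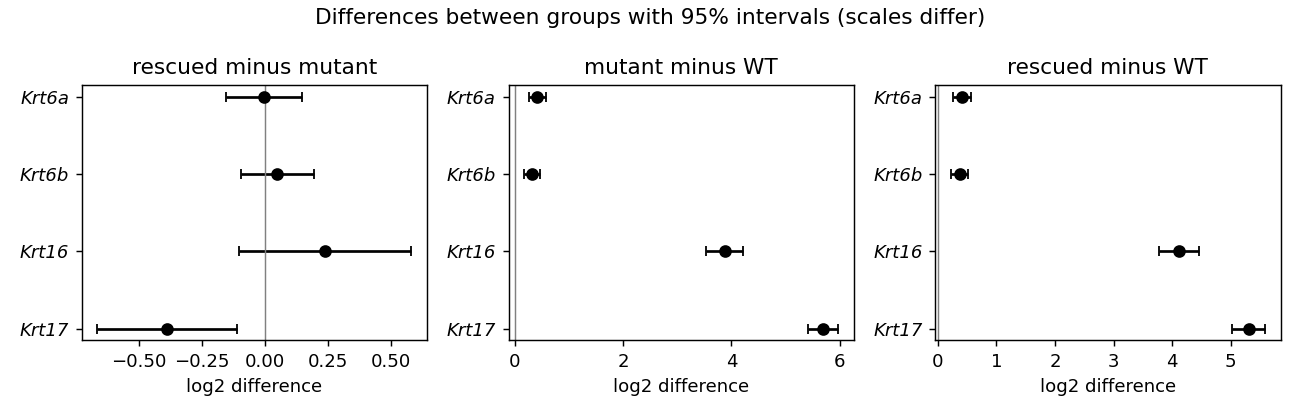
Log2 difference (horizontal axis, with a separate scale in each panel) of the 4 stress keratins for rescued minus mutant, mutant minus WT and rescued minus WT, with 95% intervals from limma that are not adjusted for the number of genes. In the left panel only the interval of Krt17, from −0.66 to −0.11, leaves out 0, and in the other panels every interval lies above 0.

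On the array scale the type I members moved much further from WT than the type II members. Krt6a and Krt6b had WT means of 13.09 and 13.27, and the highest value on any array was 14.32. Their rows therefore had less room to rise than those of Krt16 and Krt17, and how far this limited their change was not tested. The change of Krt17 exceeded that of Krt6a by 5.27 on the log2 scale in mutant against WT, and the change of Krt16 exceeded that of Krt6a by 3.46. Krt17 exceeded Krt16 by 1.81 in mutant against WT and by 1.18 in rescued against WT. Each of these differences in change had the smallest p that an exact two-sided permutation test of 3 pools against 3 can give, 0.1, and 0.129 after adjustment over the 18 tests of this kind, so this test cannot take them past the threshold at 3 pools against 3. Between rescued and mutant corneas the change of Krt16 exceeded that of Krt17 by 0.63 (exact permutation p = 0.1, adjusted p = 0.129). Krt6a and Krt6b differed in change by 0.10 in mutant against WT (exact permutation p = 0.1) and by 0.04 in rescued against WT (exact permutation p = 0.7). These comparisons are between changes and not between levels, because rows of different genes respond to RNA differently.

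The difference from WT that was present in rescued corneas can be set against that in mutant corneas as a percentage on the log2 scale, which is a description because both use the same WT pools. It was 106% for Krt16, with a range of 102% to 109% when each array in turn was left out. For Krt17 it was 93.2%, ranging from 91.7% to 94.7%. Krt6a had 98.9% and Krt6b 115%, with wider ranges of 91.6% to 110.1% and 103% to 122% around small differences. These ranges are not intervals of error. The 95% limma intervals of rescued minus mutant ran from −0.10 to 0.58 for Krt16 and from −0.10 to 0.20 for Krt6b. The ranges therefore do not show a rescued level above the mutant level for these 2 genes.

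Srf itself varied among the rescued pools, at 9.14, 9.45 and 8.45 in pools 1 to 3, against 10.77, 10.72 and 10.55 in the mutant pools. The rescued pool with the least Srf, pool 3, also had the least Krt17 of its group, at 13.26. This was not particular to Krt17. Pool 3 was also the lowest rescued pool for other keratins, among them Krt8, Krt18, Krt4 and Krt14, and the highest for Krt78. Krt6a was lowest in rescued pool 2, at 13.42, and Krt6b in rescued pool 1, at 13.60. Krt16 was lowest in rescued pool 1, at 10.96, and highest in rescued pool 2, at 11.50. With 3 rescued pools no relation between the genes can be tested.

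**Figure D3:**
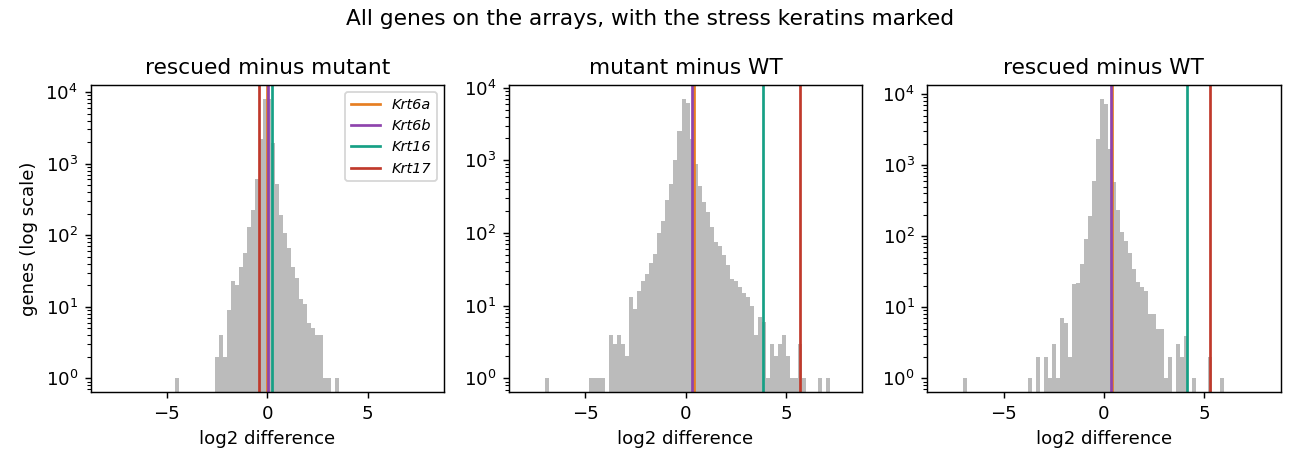
Number of genes (vertical axis, log scale) by log2 difference (horizontal axis) for rescued minus mutant, mutant minus WT and rescued minus WT, over all 22180 genes, with vertical lines at the 4 stress keratins. Krt16 and Krt17 lie near the upper end in both comparisons with WT, at 3.88 and 5.69 in mutant and at 4.12 and 5.30 in rescued corneas, and for rescued minus mutant the 4 lie between −0.39 and 0.24.

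The keratin family as a whole gives the setting for these values. It was measured by rows of its own for 53 genes, the 4 stress keratins among them. Of the other 49 keratin genes, 16 rose and 6 fell in mutant relative to WT corneas, with a median log2 difference of 0.05 against −0.02 over all genes. In rescued against WT corneas 10 were higher and 4 were lower. Between rescued and mutant corneas 3 were higher and 9 were lower, with a median of −0.07 against −0.002 over all genes. Over all genes, 15.1% were called higher and 16.5% lower in mutant against WT corneas. The shares were 6.28% and 7.43% in rescued against WT, and 6.46% and 6.88% in rescued against mutant corneas. These shares are the background for each count of list members here and below.

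The simple epithelial keratins, which line single-layered and glandular epithelia, include Krt18 and Krt8, the keratins nearest to Krt17 in size of increase between mutant and WT corneas. In rescued against WT corneas the nearest keratin was Krt16. Of 6 simple keratin genes, 5 rose and 1 fell in mutant relative to WT corneas, and 4 were lower in rescued than in mutant corneas with none higher. Krt18 had log2 means of 10.55 in rescued, 12.25 in mutant and 7.93 in WT pools. Its type II partner Krt8 had means of 11.09 in rescued, 12.39 in mutant and 8.14 in WT pools. Both fell in rescued corneas relative to the mutant, Krt18 by 1.70 (SE 0.19, adjusted p = 0.000536) and Krt8 by 1.30 (SE 0.21, adjusted p = 0.00354) on the log2 scale. Of their mutant difference from WT, 60.7% for Krt18 and 69.4% for Krt8 was present in rescued corneas. Other keratins came closer to the 93.2% of Krt17. The percentage was 87.9% for Krt20, a loss relative to WT, with a range of 85.8% to 91.3% when each array in turn was left out. It was 81.6% for Krt4 (76.7% to 90.1%), 79.2% for Krt19 (72.5% to 90.0%) and 78.3% for Krt14 (73.1% to 83.2%). Krt23 was 9.67-fold higher in the mutant than in WT corneas and 2.22-fold lower in rescued than in mutant corneas (adjusted p = 0.0262). Krt19 was 5.9-fold higher in the mutant than in WT corneas, and its difference of −0.53 between rescued and mutant did not pass (adjusted p = 0.254). Krt20, the exception in direction, was 5.62-fold lower in the mutant than in WT corneas (adjusted p = 6.23e-07).

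**Figure D4:**
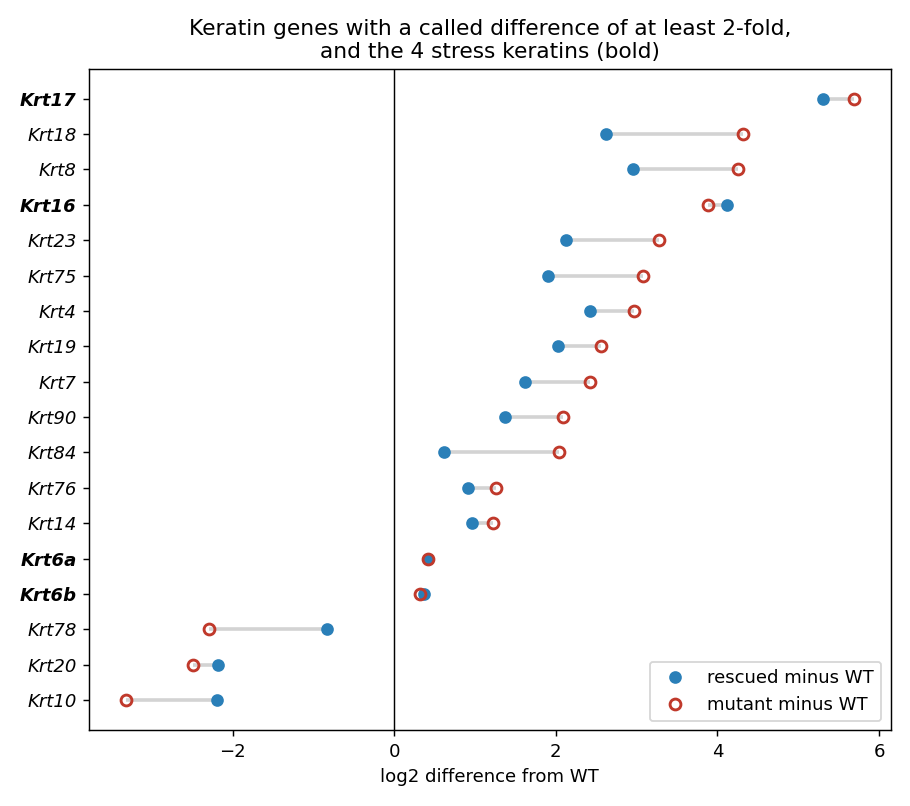
Log2 difference from WT (horizontal axis) in rescued corneas (filled points) and in mutant corneas (open points) for each keratin gene with a called difference of at least 2-fold in any comparison and for the 4 stress keratins, named in bold. For Krt16 the filled point lies 0.24 to the right of the open point, and for Krt18 and Krt8 the filled points lie 1.70 and 1.30 to the left.

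Keratins of the mucosal, epidermal and hair classes were also measured. Krt4, a type II keratin of mucosal epithelium, was 7.84-fold higher in the mutant than in WT corneas and 5.37-fold higher in rescued than in WT corneas, and its difference of −0.55 between rescued and mutant did not pass (adjusted p = 0.123). Krt78, a type II keratin gene, had log2 means of 8.74 in rescued, 7.28 in mutant and 9.57 in WT pools. It was 4.9-fold lower in the mutant than in WT corneas (adjusted p = 1.32e-05) and 2.75-fold higher in rescued than in mutant corneas (adjusted p = 0.000835), and 36.3% of its mutant difference from WT was present in rescued corneas. Krt10, the type I keratin of cornifying epidermis, was lower than in WT in both genotypes, 4.59-fold in rescued and 10-fold in mutant corneas, and was 2.19-fold higher in rescued corneas than in the mutant. Of 24 measured hair follicle keratins, 4 rose and 1 fell in mutant relative to WT corneas, where 15.1% of all genes were called higher and 16.5% lower, and 3 were lower and none was higher in rescued corneas than in the mutant. Krt75, a type II keratin of the follicle's companion layer that lies in the same gene cluster as Krt6a and Krt6b, had log2 intensities of 10.88, 11.64 and 10.53 in rescued, 12.19, 12.15 and 12.24 in mutant and 9.16, 9.01 and 9.17 in WT pools. Every rescued pool of Krt75 lay between the mutant and WT pools, and it fell by 1.18 in rescued relative to mutant corneas (SE 0.22, adjusted p = 0.00746). Krt84 was at least 4.1-fold higher in the mutant than in WT corneas, a lower bound because its WT level was below the median of all rows, and was 2.68-fold lower in rescued than in mutant corneas.

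Among the corneal and basal keratins, Krt14, the basal type I keratin whose gene lies in the same cluster as Krt16 and Krt17, had log2 means of 13.30 in rescued, 13.56 in mutant and 12.34 in WT pools. It was 1.94-fold higher in rescued than in WT and 2.33-fold higher in the mutant than in WT corneas. It fell by 0.26 in rescued relative to mutant corneas (SE 0.07, adjusted p = 0.0357). Krt12 was 1.31-fold higher in rescued than in mutant and 1.33-fold lower in the mutant than in WT corneas, and rescued and WT corneas did not differ past the threshold (log2 difference −0.03, adjusted p = 0.808). Krt5, the basal type II keratin, had no row of its own.

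Position in the genome and shared sequence bear on how well these rows separate the genes. In the reference gene order of mouse assembly GRCm38.p6, Krt6b and Krt6a are neighbours on chromosome 15, and Krt16 and Krt17 are neighbours on chromosome 11. The build behind the array annotation was not stated, so no coordinates are printed. Of the 8 nearest flanking genes, Krt42 alone had a row of its own. Krt42, which encodes a type I keratin and lies beside Krt17, was 1.36-fold higher in the mutant than in WT corneas (adjusted p = 0.00537) and had a log2 difference of 0.29 between rescued and WT that did not pass (adjusted p = 0.0739). Krt6a and Krt6b are near-identical copies, and how far RNA of one binds the row of the other was not tested.

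A pair of further rows names Krt6a or Krt6b together with another gene and was left out of the comparisons. The row shared by Krt5 and Krt6a had log2 means of 13.76 ± 0.04 in rescued, 13.68 ± 0.01 in mutant and 13.75 ± 0.01 in WT pools (SD, n = 3 each). The row shared by the pseudogene Gm5478 and Krt6b had 6.25 ± 0.10 in rescued, 6.34 ± 0.07 in mutant and 6.32 ± 0.02 in WT pools. Neither shows the separation of mutant and rescued from WT that the rows of Krt6a and Krt6b alone show. Which transcripts these shared rows detect was not tested.

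The genes most like each member over the 9 arrays were found by the root mean square difference of log2 values after subtraction of the WT mean. For Krt6a the 5 nearest were Mmp14, Thsd4, Samd9l, Zfp710 and Fbxo17, at 0.05 to 0.08. For Krt6b they were Slc9a3r1, Rbp2, Ltbp4, Pkp1 and L1cam, at 0.04 to 0.05, and Pkp1 encodes plakophilin 1, a desmosomal plaque protein that binds keratin filaments.

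No gene ranked this way came as near to Krt16 or Krt17. The measure is not scaled to the size of a change, and many more genes have small changes than large ones. The distances of Krt16 and Krt17 therefore cannot be compared with those of Krt6a and Krt6b. For Krt16 the 5 nearest were Chil1, Nt5e, Rgs5, Acta2 and Emcn, at 0.54 to 0.66. Their log2 differences between rescued and mutant ran from −0.93 to −0.78, against 0.24 for Krt16. For Krt17 they were Acta1, Serpinb3a, Acta2, Alox15 and Ppbp, at 0.69 to 0.96, with differences between rescued and mutant from −1.66 to −0.76, against −0.39 for Krt17. In rescued against WT corneas the differences of these genes were 3.00 or more.

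Factors and receptors reported to act on stress keratin promoters in keratinocytes did not move as a block. Of 23 measured members, 7 rose and 6 fell in mutant relative to WT corneas, where 15.1% of all genes rose and 16.5% fell. In rescued against WT corneas 5 were higher and 3 were lower (6.28% and 7.43% of all genes). Between rescued and mutant corneas 4 were higher and 4 were lower (6.46% and 6.88% of all genes). The medians were between 0.02 and 0.03 in all 3 comparisons. Jun, the gene for a subunit of the AP-1 transcription factor, had log2 means of 11.66 in rescued, 12.63 in mutant and 10.49 in WT pools. It was 4.42-fold higher in the mutant than in WT corneas and fell by 0.96 in rescued relative to mutant corneas (SE 0.17, adjusted p = 0.00592). Atf3, the gene for a stress-induced transcription factor that can pair with Jun, was 5.92-fold higher in the mutant than in WT and 2.39-fold lower in rescued than in mutant corneas. Fosb, an AP-1 partner of Jun, was 1.7-fold higher in rescued than in WT and 1.56-fold higher in the mutant than in WT corneas, and its rescued and mutant values did not differ past the threshold (adjusted p = 0.603). The AP-1 genes of the list did not all rise. Fos had log2 intensities of 8.83, 8.85 and 8.80 in rescued, 8.63, 8.54 and 8.65 in mutant and 9.34, 8.99 and 9.39 in WT pools. For Fosl2 every mutant pool lay below every WT pool, and the rescued pools overlapped WT. The thyroid hormone receptor genes Thra and Thrb, whose products can repress keratin promoters, were lower in the mutant than in WT corneas. The fall was 0.92 for Thra (adjusted p = 2.02e-05) and 0.54 for Thrb (adjusted p = 0.000397) on the log2 scale. The receptors parted in rescued corneas. Every rescued pool of Thra lay between the mutant and WT pools. For Thrb the rescued pools overlapped the mutant pools and lay below every WT pool. The part of these receptors in the stress keratin values was not tested.

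Signals and products of activated keratinocytes were mostly raised in the mutant. Of 32 measured members, 25 rose and 3 fell in mutant relative to WT corneas, with a median log2 difference of 0.86. In rescued against WT corneas 16 were higher and 2 were lower, with a median of 0.44. Between rescued and mutant corneas 13 were lower and 3 were higher. Over all genes, 15.1% rose and 16.5% fell in mutant relative to WT corneas. In rescued against WT 6.28% were higher and 7.43% lower, and in rescued against mutant corneas 6.46% were higher and 6.88% lower. Sprr1a, the gene for a cornified envelope precursor, had log2 means of 11.50 in rescued, 11.80 in mutant and 8.67 in WT pools, and its rescued and mutant pools overlapped (difference −0.31, adjusted p = 0.596). Plaur, the gene for the urokinase receptor, moved otherwise, with a fall of 2.00 in rescued relative to mutant corneas (SE 0.21, adjusted p = 0.000319). Epgn, the gene for the EGF receptor ligand epigen, fell by 1.58 in the same comparison (SE 0.17, adjusted p = 0.000338). Il1a, the gene for the alarm cytokine interleukin 1 alpha, was picked after its values were seen. It was 1.98-fold higher in rescued than in WT and 1.99-fold higher in the mutant than in WT corneas, and its log2 difference between rescued and mutant was −0.01 (adjusted p = 0.983).

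Keratin-binding plaque and linker proteins showed no shared direction. Of 12 measured genes, 4 rose and 2 fell in mutant relative to WT corneas, where 15.1% of all genes rose and 16.5% fell. In rescued against WT corneas 1 was higher, where 6.28% of all genes were. Evpl and Ppl, the genes for the cornified envelope linkers envoplakin and periplakin, were 1.76-fold and 1.72-fold lower in the mutant than in WT corneas. In rescued relative to mutant corneas they were 1.74-fold and 1.71-fold higher, and neither differed from WT past the threshold (adjusted p = 0.936 for Evpl and 0.937 for Ppl). Pkp2, the gene for plakophilin 2, was 3.14-fold higher in the mutant than in WT and 2.52-fold lower in rescued than in mutant corneas.

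Cell division genes and markers of other tissues were measured beside the stress keratins. For all counts of these genes, the background is 15.1% of all genes higher and 16.5% lower in mutant against WT corneas. It is 6.28% and 7.43% in rescued against WT, and 6.46% and 6.88% in rescued against mutant corneas. Of 11 proliferation genes, 10 were higher in the mutant than in WT and 3 in rescued than in WT corneas, and 1, Plk1, was lower in rescued than in mutant corneas (adjusted p = 0.0442). Between rescued and mutant corneas the log2 differences of the 11 ran from −0.59 to −0.14, with a median of −0.39, and 8 had an unadjusted limma p under 0.05. In rescued against WT corneas they ran from 0.11 to 0.65, and 8 had an unadjusted limma p under 0.05. Top2a, a DNA topoisomerase gene of dividing cells, was 1.57-fold higher in rescued than in WT and 2.07-fold higher in the mutant than in WT corneas. Their part in the stress keratin values was not tested.

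Of 10 measured hair follicle and skin markers, none passed the limma test in either comparison with WT (1 in each had an unadjusted p under 0.05), and their log2 summed intensity was 9.36 to 9.42 in rescued, 9.43 to 9.46 in mutant and 9.33 to 9.40 in WT pools. Their log2 differences ran from −0.15 to 0.19 in rescued and from −0.11 to 0.27 in mutant corneas, each against WT. Between rescued and mutant corneas 1 of the 10 was called lower, and the differences ran from −0.41 to 0.09. Of 9 conjunctival and goblet cell markers, 4 were higher in the mutant than in WT and 2 in rescued than in WT corneas, with summed levels of 13.1 to 13.8 in rescued, 13.7 to 14.0 in mutant and 12.3 to 12.7 in WT pools. The sum rests on the keratins Krt4 and Krt13, while the goblet cell markers Muc5ac, Muc5b, Spdef, Tff1, Clca1 and Foxa3 had group means between 5.74 and 7.01. Krt7 had log2 means of 8.28 in rescued, 9.08 in mutant and 6.66 in WT pools. Of 6 measured leukocyte markers, 5 rose and 1 fell in mutant relative to WT corneas, and 3 were higher in rescued than in WT, with log2 summed levels of 11.71 to 11.94 in rescued, 11.43 to 11.75 in mutant and 11.34 to 11.40 in WT pools. The sum rests largely on Itgam, an integrin gene of myeloid cells, and on Cd68, a macrophage gene named after its values were seen. Itgam was the marker that fell in the mutant, with log2 means of 10.59 in rescued, 9.20 in mutant and 10.33 in WT pools. Ptprc, the pan-leukocyte gene for CD45, had 7.78 in rescued, 8.61 in mutant and 6.21 in WT pools, and the median log2 difference of the 6 markers was 1.15 in mutant against WT, 0.89 in rescued against WT and −0.26 between rescued and mutant. Of 5 lens genes, 3 were lower than in WT in rescued and in mutant corneas, with log2 summed levels of 10.49 to 11.11 in rescued, 10.79 to 12.26 in mutant and 12.61 to 13.19 in WT pools. The part of conjunctival, leukocyte and lens RNA in the stress keratin values was not tested.

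Markers of the corneal layers were measured too. Of 4 measured epithelial markers, 3 were lower in the mutant than in WT corneas, and 3 were higher in rescued than in mutant corneas. None was called between rescued and WT corneas. Their log2 summed levels were 15.11 to 15.16 in rescued, 14.69 to 14.78 in mutant and 15.16 to 15.20 in WT pools. Of 5 stromal markers, 3 were lower in the mutant than in WT and 2 in rescued than in WT corneas, with log2 summed levels of 14.47 to 14.66 in rescued, 14.26 to 14.52 in mutant and 14.74 to 14.88 in WT pools. Of 3 endothelial markers, 3 were lower in the mutant than in WT and 1 in rescued than in WT corneas, with log2 summed levels of 12.06 to 12.21 in rescued, 11.84 to 12.12 in mutant and 12.36 to 12.42 in WT pools. Their part in the stress keratin values was not tested.

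The pools also differed in Y-linked expression. Uty, a Y-linked gene, had log2 intensities of 7.63, 8.80 and 8.51 in rescued pools 1 to 3, 7.51, 9.64 and 8.23 in mutant pools, and 4.91, 9.38 and 4.44 in WT pools. WT pools 1 and 3 were below every other pool. With Y-linked expression as a covariate, the differences of the 4 stress keratins from WT kept their direction and their call.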

How the data were processed

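Total RNA of pooled corneas was extracted with Trizol, converted with Ambion's WT Expression kit and biotin-labelled with the Affymetrix WT Terminal Labeling kit, per the labels' protocols. The authors deposited log2 intensities already normalised between arrays. The software and method are not given in any source used here. Base 2 was taken from the range, 2.14 to 14.32. The number of arrays limits the precision.

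Of 41345 rows, 23521 have exactly 1 gene symbol, 1814 have several and 16010 are not listed in the platform annotation. The brightest row by mean over 9 arrays stood for each of 22180 genes, with no intensity filter. Group means were fitted over all 9 arrays with limma (version 3.58.1, R 4.3.3; lmFit, contrasts, eBayes, two-sided), and genes were called at an adjusted p under 0.05. Differences in change between members used exact permutation tests (scipy 1.17.1). Where the lower mean lay under the median row, 6.77, a fold is written as at least. Figures used matplotlib 3.10.9.

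The members and the gene lists were chosen with earlier results of these data known. Named genes were the members, the flanking genes, the 5 genes most like each member, the 5 keratins with the largest difference in each comparison, and up to 4 genes of each list with the largest difference from WT in mutant and in rescued corneas; predicted, receptor and small RNA genes were left out of the likeness ranking. Genes with no row of their own were not analysed. The replicate numbers are in the labels but did not pair the arrays (correlations of same-numbered deviations between −0.02 and 0.06). Alternatives were other scalings, filters, row rules, variance models, subsets, a replicate block, a Y-linked covariate and leaving out each array. Nothing in the labels says whether pools were processed in batches.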

Additional observations from a re-analysis of the deposited data

How the results depend on the processing

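The 8 comparisons of the 4 stress keratins with WT kept their direction and call under all 11 alternatives and without each array. Between rescued and mutant corneas, the Krt17 difference passed the limma threshold under 4 alternatives, at −0.39 with a replicate block (adjusted p = 0.0159), −0.39 with an intensity trend (adjusted p = 0.0317), −0.39 without genes dimmer than the median row (adjusted p = 0.0363) and −0.37 with Y-linked expression as a covariate (adjusted p = 0.0348). It also passed without WT replicate 2 (adjusted p = 0.0355). Without each array in turn it ranged from −0.47 to −0.30, with limma adjusted p from 0.0355 to 0.2185. Over the 11 alternatives its adjusted p ran from 0.0159 to 0.0833. The replicate block changed no other call of these 4 genes; the numbers do not pair the arrays. The Krt6a difference between rescued and mutant ranged from −0.036 to 0.043 without each array, and that of Krt6b was −0.011 after quantile normalisation; neither passed anywhere. The number of genes called between rescued and mutant, 2959, became 1420 at an adjusted p under 0.01 and 312 with a 2-fold minimum. It ranged from 1808 to 2795 without each array, with 1871 without mutant replicate 1, 1931 without mutant replicate 3 and 1808 without rescued replicate 3. Between rescued and WT 3042 genes became 1374 at an adjusted p under 0.01 and 372 with a 2-fold minimum. Without each array they ranged from 1812, without rescued replicate 2, to 2975. Between mutant and WT, 7004 genes became 1116 with a 2-fold minimum. The causes were not tested, other than the stricter rules themselves. Counts of called keratin genes stayed within 1.5 times under every alternative run. The arrays carry no background measure for single rows, which limits statements on Krt16 in WT.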
